A study of Drosophila melanogaster with 14 samples.

Results

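Trimethylation of lysine 4 on histone H3 (H3K4me3) is laid down on nucleosomes at the starts of transcribed genes, and the DNA directly beside those nucleosomes is often kept open for regulatory proteins. GAGA factor (GAF), the product of the Trithorax-like gene, binds GA-rich DNA and is known in flies for helping to clear nucleosomes from promoters. Yorkie (Yki), the growth-promoting coactivator held in check by the Hippo pathway, has no DNA-binding domain of its own and reaches DNA through partners such as Scalloped. The question addressed here is how the 2 factors lie relative to H3K4me3 in embryos, read from the marked regions: each of the 6499 H3K4me3 peaks of embryos aged 8 to 16 hours was classed by sharing at least 1 bp with Yki peaks, GAF peaks, both or neither. These marks are 6499 of the 29537 peaks in the 5 deposited lists.

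The embryo samples were whole embryos of the Iso1 strain, with no mutant or treatment, and the marks came from 2 ChIP libraries against H3K4me3, set beside 3 libraries against Yki, 3 against GAF and 1 input library without antibody. The authors deposited 1 list of positions per antibody, on build dm3, so there are no replicate values, the spread between embryos cannot be measured and sequencing depth is unknown. A whole embryo mixes many cell types, so a mark and a factor on the same stretch of DNA need not occur in the same cells. The lists hold no expression, so the labelled tissue could not be set against marker genes, and no annotation of this build was used, so marks are described by position and not by gene. In all 5 lists the narrowest peak was 200 bp wide and the smallest distance between neighbouring peaks was 51 bp. The deposited lists are used as they stand, and ranges in brackets after shares are Wilson 95% intervals, which cover counting error only, since peaks are not replicates.

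Both factors lay on 1000 marks (15.4%, 14.5 to 16.3), Yki alone on 577 (8.88%, 8.21 to 9.59), GAF alone on 596 (9.17%, 8.49 to 9.90) and neither on 4326 (66.6%, 65.4 to 67.7). The 2173 marks with at least 1 factor made up 33.4% of marks and 37.3% of the marked 10.8 Mb. Most marks with a factor carried a single peak of it: 1352 of 1577 marks with Yki (85.7%) held 1 Yki peak, and 1480 of 1596 marks with GAF (92.7%) held 1 GAF peak. The highest number on a mark was 4 for Yki and 5 for GAF. Near the limit of 1 bp, 157 marks with a factor (7.23%) had a largest overlap of up to 50 bp, and 94 marks with neither (2.17%) had a factor peak within 50 bp. Most marks with neither factor were well clear of both. Their distance to the nearest Yki or GAF peak had a median of 4230 bp (quartiles 1351 and 9579), 45.1% lay more than 5000 bp away, and 322 (7.44%) lay more than 20000 bp away.

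Mark width differed between the classes. Median width was 1423 bp for marks with both factors (95% interval of the median 1375 to 1489), 2051 bp with Yki alone (1938 to 2175), 923.5 bp with GAF alone (836 to 1007) and 1149.5 bp with neither (1096 to 1195). With the rule of 1 bp, marks with Yki alone were the widest class by median and marks with GAF alone the narrowest, while all marks with GAF had a median of 1252 bp. This order depended on the overlap rule. GAF alone was wider than neither with the factor midpoint inside the mark, 1299 (1174 to 1409) against 1129 bp (1088 to 1169). It was also wider with wing disc lists, 1308 (1182 to 1383) against 738 bp (689 to 794). With factor peaks of 200 bp the medians were 1176 (1096 to 1308) against 1122 bp (1081 to 1166), intervals that overlap. With a reciprocal overlap of 50% they were 1347 (1211 to 1447) against 1262.5 bp (1221 to 1300), again overlapping. With the reciprocal overlap Yki alone had the lowest median, 1135 bp (933 to 1330, 96 marks), but its interval overlapped that of every other class. The middle 50% of widths ran from 918 to 2154 bp with both, from 1369 to 3106 bp with Yki alone, from 465.75 to 1626.25 bp with GAF alone and from 465 to 2101 bp with neither, so the classes overlapped broadly. A wider mark meets other peaks more readily, so width and class are tied by the rule itself and the medians are given as a description. Among marks of 1 kb or more, the median width with either factor over that with neither was 0.953 (0.889 to 1.01), against 1.24 (1.16 to 1.36) among all marks.

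The share of marks with Yki climbed with width and then levelled off, whereas the share with GAF passed through a maximum. The list was split by width into 10 groups of 649 or 650 marks. Yki lay on 4.31% of the narrowest group (200 to 300 bp), on 33.0% of marks of 1263 to 1567 bp and on 33.7% of the widest group (3443 to 17875 bp). GAF lay on 15.2% of the narrowest marks, on 31.7% of marks of 699 to 995 bp and on 18.9% of the widest. Yki without GAF went from 0.462% of the narrowest group to 19.2% of the widest, while GAF without Yki went from 11.4% to 4.46%. Counted per length of mark, Yki midpoints were densest in marks of 995 to 1262 bp (0.149 per kb) and sparser in the narrowest (0.0506) and the widest (0.0630). GAF midpoints were densest in marks of 300 to 456 bp (0.174 per kb) and least dense in the widest group (0.0308). Per kb, the widest group thus held fewer midpoints of either factor than the groups near the median width.

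**Figure D1:**
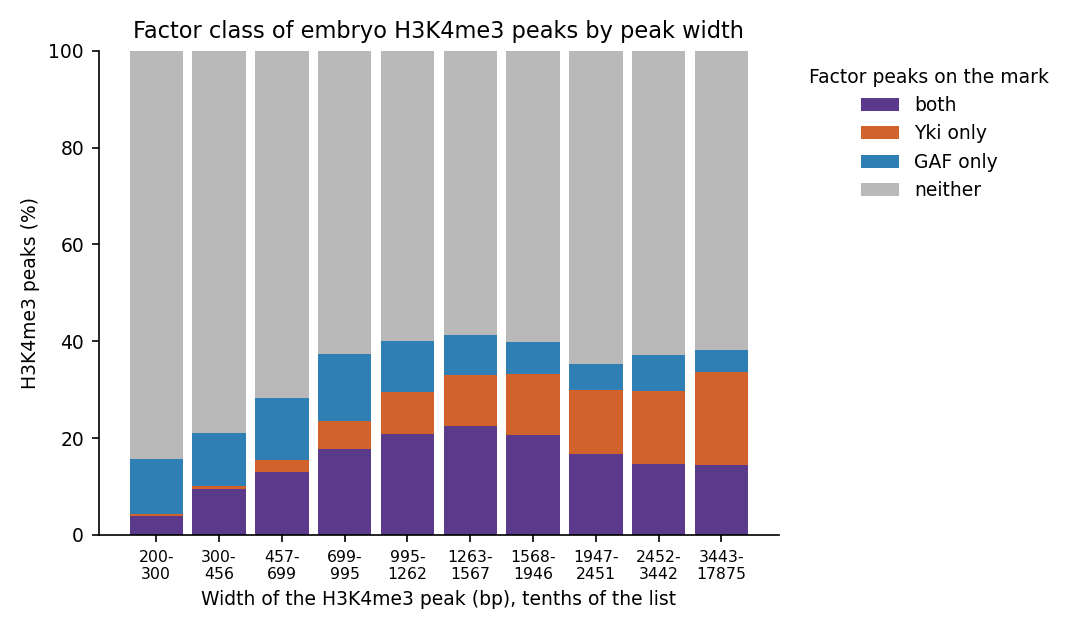
Stacked bars give the share (%) of embryo H3K4me3 peaks with both factors, Yki only, GAF only or neither, for 10 groups of the list ordered by peak width in bp. Marks with Yki only make up 0.462% of the narrowest group and 19.2% of the widest, and marks with GAF only 11.4% and 4.46%.

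Yki and GAF met on the same marks at every width. GAF lay on 63.4% of the 1577 marks with Yki, against 12.1% of the 4922 marks without Yki, an odds ratio of 12.6 (95% interval 11.01 to 14.4). Within quartiles of mark width the Mantel-Haenszel odds ratio was 14.6 (12.6 to 16.9). The ratio was 61.2 (35.0 to 107) among the narrowest quartile of marks and 10.04 (7.64 to 13.2) among the widest, where 48.0% of marks with Yki also held GAF. On 956 of the 1000 marks with both (95.6%, 94.1 to 96.7) a Yki peak, a GAF peak and the mark had at least 1 bp in common. On the other marks with both, no Yki peak touched a GAF peak. Of the 1087 touching pairs of Yki and GAF peaks on these marks, 885 (81.4%) had the Yki peak wholly within the GAF peak. Yki peaks in these pairs had a median width of 676 bp and GAF peaks one of 1640 bp, and their midpoints lay a median of 217.5 bp apart (quartiles 79 and 541). Both midpoints were inside the mark in 518 pairs (47.7%) and both outside it in 317 (29.2%). Yki alone was inside in 137 pairs (12.6%) and GAF alone in 115 (10.6%).

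GAF covered more of a mark than Yki did, and most of it where both were present. On marks with both factors, the Yki peaks of a mark together covered a median of 30.9% of it (quartiles 13.4 and 58.8). The GAF peaks together covered 70.7% (35.3 and 100). On marks with 1 factor alone, Yki peaks together covered a median of 9.16% of the mark and GAF peaks 34.7%. A single GAF peak spanned the whole mark on 375 of 1596 marks with GAF (23.5%, 21.5 to 25.6), and these marks had a median width of 628 bp. A single Yki peak did so on 66 of 1577 marks with Yki (4.19%, 3.30 to 5.29). The lists differ in peak width, with medians of 438 bp for Yki and 583 bp for GAF, and the part of this in spanning was not tested. The widest GAF peak, at X 3565882 to 3593771 (27890 bp), spanned 2 marks.

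Most marks with a factor had an edge crossed by one of its peaks. Since most of them carried a single peak, which crosses 1 edge at most unless it spans the mark, the numbers with 1 and with both edges crossed are given as a description. Of the marks with Yki, 967 (61.3%, 58.9 to 63.7) had 1 edge crossed by a Yki peak, 487 (30.9%) held Yki peaks wholly inside, and 57 (3.61%) had both edges crossed by separate peaks. The marks with Yki wholly inside were the wider ones, with a median of 2140 bp against 1519 bp for those crossed at 1 edge. Of the marks with GAF, 839 (52.6%, 50.1 to 55.0) had 1 edge crossed, 322 (20.2%) held GAF peaks wholly inside and 60 (3.76%) had both edges crossed by separate peaks. The crossed edge was that of the lower coordinate on 50.2% (47.0 to 53.3) of the marks with Yki at 1 edge and on 53.8% (50.4 to 57.1) of those with GAF. Which edge faces a gene start was not analysed here.

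Relative to the edge itself, Yki midpoints in embryos were densest just outside the mark. On the arms of chromosomes 2 and 3 and on X, the first 250 bp outside an edge held 565 Yki midpoints (0.220 per kb, 95% Poisson interval 0.203 to 0.239) and the first 250 bp inside held 290 (0.0984, 0.0874 to 0.110). The ratio of outside to inside was 2.24 (1.95 to 2.58). Away from the mark the density was 0.182 per kb between 250 and 500 bp, 0.0713 between 500 and 1000 bp, 0.0323 between 1000 and 2000 bp and 0.00872 beyond 20000 bp. Inside, it was 0.136 per kb between 250 and 500 bp from an edge and 0.0654 beyond 1000 bp (0.0563 to 0.0756). The profile had 2 maxima, the higher outside the edge and the lower inside, with a dip to 0.0848 per kb between 100 and 200 bp inside.

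GAF midpoints in embryos were also denser outside the edge than inside, with a smaller contrast and a higher density far from any mark. They numbered 344 in the first 250 bp outside (0.134 per kb, 0.120 to 0.149) and 286 in the first 250 bp inside (0.0970, 0.0861 to 0.109), a ratio of 1.38 (1.18 to 1.62). The ratio for Yki was 1.62 times that for GAF (1.31 to 2.00). Yki was highest 200 to 300 bp outside the edge, at 0.244 per kb, and dropped to 0.204 in the last 100 bp before it. GAF was level, between 0.161 and 0.175 per kb, from 500 to 100 bp outside, and stood at 0.102 in the last 100 bp. Beyond 20000 bp from a mark the GAF density was 0.0279 per kb, against 0.00872 for Yki, whose list is the shorter. Deep inside marks, over 1000 bp from an edge, GAF stood at 0.0333 per kb (0.0268 to 0.0407), near its density of 0.0279 (0.0264 to 0.0295) far from any mark.

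**Figure D2:**
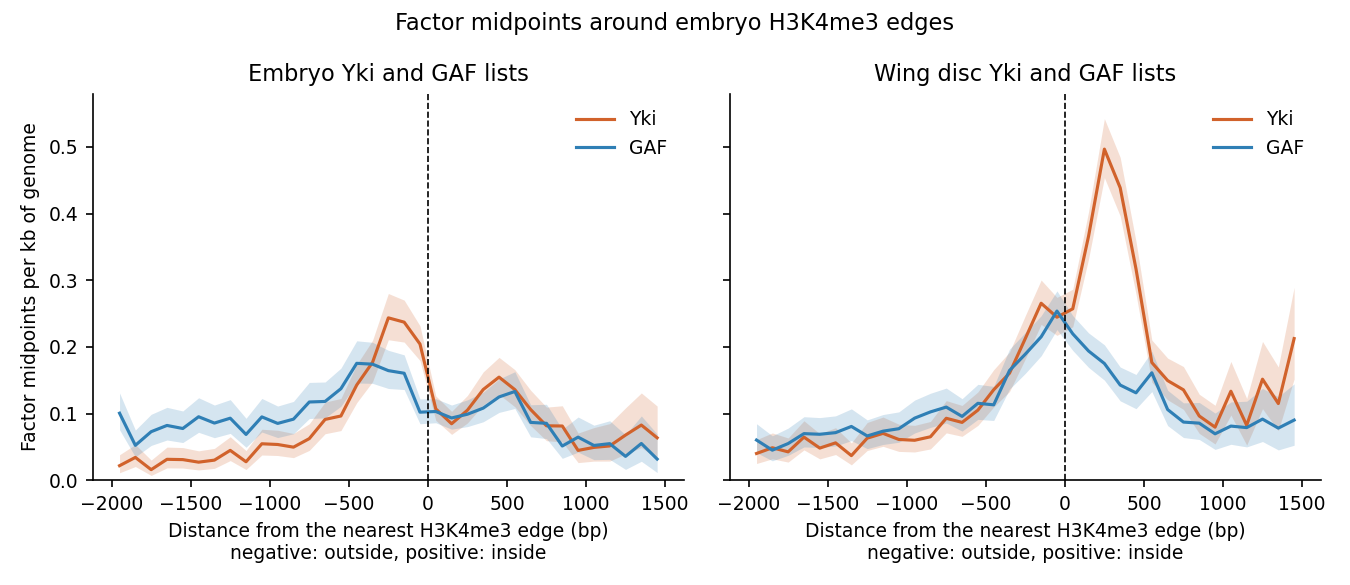
Factor midpoints per kb of genome, in bins of 100 bp, are plotted against distance in bp from the nearest edge of an embryo H3K4me3 peak (negative outside, positive inside), for the embryo lists and for the wing disc lists; bands are 95% Poisson intervals. In embryos Yki is highest outside the edge (0.244 per kb between 200 and 300 bp), and in wing discs it is highest inside (0.497 per kb between 200 and 300 bp).

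Among factor peaks that touched a mark, the midpoint lay inside a mark for 62.1% (59.7 to 64.4) of the 1693 Yki peaks and for 55.5% (53.1 to 57.9) of the 1589 GAF peaks, a difference of 6.57 percentage points (Newcombe 95% interval 3.20 to 9.92). With every factor peak reduced to 200 bp the difference was -7.19 points (-10.1 to -4.20), the opposite direction. Inside the mark, the first 250 bp from an edge held Yki midpoints at 1.05 times (0.919 to 1.20) the density of the interior, and GAF midpoints at 1.28 times (1.12 to 1.48). For both factors the midpoint was inside the mark more often where the other factor was present. For Yki the share of pairs of mark and peak was 60.03% with both factors and 52.6% with Yki alone, a difference of 7.45 points (2.69 to 12.2). For GAF it was 57.2% with both and 40.9% with GAF alone, a difference of 16.3 points (11.4 to 21.0). These comparisons were not made within mark width, whose median was 1423 bp with both, 2051 bp with Yki alone and 923.5 bp with GAF alone. The factor peaks differed in width too. In these pairs the median was 1432 against 770 bp for GAF and 646 against 374 bp for Yki, with both factors against 1 alone. The part of width was not tested.

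Marks with GAF, alone or beside Yki, stood farther from other marks than marks with neither factor. The distance to the nearest other mark had a median of 1097.5 bp for marks with both factors, 352 bp with Yki alone, 1254.5 bp with GAF alone and 300 bp with neither. Another mark lay within 1 kb of 54.3% (52.2 to 56.4) of marks with either factor and of 76.1% (74.8 to 77.4) of marks with neither, a difference of -21.8 points (-24.3 to -19.4). With marks under 500 bp apart merged, the difference was -9.79 points (-12.4 to -7.15). Whether close marks are pieces of 1 region split in calling was not tested. Without merging, the share was 48.8% with both, 71.8% with Yki alone and 46.6% with GAF alone, so the 2 classes with GAF had the lower shares. The difference between marks with either factor and marks with neither was present in each quartile of width, from -36.7 points (-42.4 to -30.8) among the narrowest to -12.0 (-16.4 to -7.68) among the widest. For Yki alone the share within width was 54.4% (44.8 to 63.7) against 67.2% (64.2 to 70.01) with neither in the second quartile, and 68.04% (61.2 to 74.2) against 72.6% (69.7 to 75.3) in the third. Among the widest it was 81.5% (76.4 to 85.7) against 82.2% (79.7 to 84.4), and the narrowest quartile held 15 marks with Yki alone. In the upper 2 quartiles the intervals of Yki alone and neither overlapped. Of the marks with both factors 44.6% (41.5 to 47.7) had no other mark within 2 kb, likewise 44.5% of those with GAF alone, 23.1% of those with Yki alone and 19.2% (18.1 to 20.4) of those with neither.

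**Figure D3:**
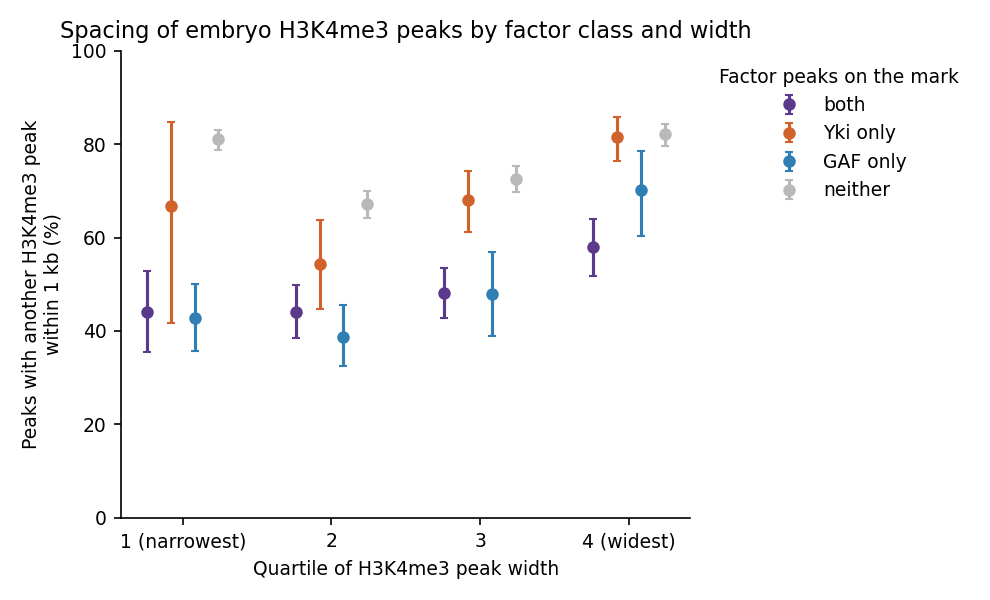
Points give the share (%) of embryo H3K4me3 peaks with another H3K4me3 peak within 1 kb, by factor class and by quartile of peak width, and bars are Wilson 95% intervals. Marks with neither factor lie between 67.2 and 82.2%, marks with both factors between 44.0 and 58.0%, and marks with Yki only between 54.4 and 81.5%.

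Joined over distances under 1 kb, the marks formed 3553 chains, 2026 of a single mark and 1527 of 2 or more, with up to 13 marks in a chain. Single marks had a median length of 1168 bp, and the 101 chains of 6 or more had one of 13622 bp. A longer chain meets other peaks more readily, so the shares are tied to length and are given as a description. Yki alone lay on 8.05% (6.94 to 9.31) of the single marks and on 33.7% (25.2 to 43.3) of the longest chains. Both factors lay on 25.3% (23.4 to 27.2) of the single marks and on 19.8% (13.2 to 28.6) of the longest chains. GAF alone lay on 15.7% (14.2 to 17.3) of the single marks and on 11.9% (6.93 to 19.6) of the longest chains. Neither factor lay on 50.99% of the single marks and on 34.7% (26.1 to 44.3) of the longest chains. Of all chains, 1728 (48.6%, 47.0 to 50.3) held neither factor.

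The short gaps between neighbouring marks held Yki midpoints more often than GAF midpoints. GAF peaks were the wider, with a median of 583 against 438 bp in the whole lists, and the part of peak width in these counts was not tested. Of the 2946 gaps under 1 kb, 8.15% (7.21 to 9.19) contained a Yki midpoint and 2.38% (1.89 to 2.99) a GAF midpoint, at densities of 0.259 per kb (0.228 to 0.294) and 0.0744 per kb (0.0580 to 0.0940). In the 1086 gaps under 200 bp, 29 Yki midpoints and 4 GAF midpoints were found. In gaps of 2 to 5 kb the intervals overlapped, at 0.0784 for Yki (0.0667 to 0.0915) and 0.0847 for GAF (0.0726 to 0.0983), and in gaps over 20 kb Yki was the sparser, at 0.0137 against 0.0352. At free edges, with no other mark within 2 kb, the 400 bp outside held 0.211 Yki midpoints per kb (0.194 to 0.230) and 0.168 GAF midpoints per kb (0.152 to 0.184). Edges with a mark within 1 kb thus had 1.23 times (1.06 to 1.43) the Yki density of free edges and 0.444 times (0.344 to 0.572) their GAF density, and the first ratio was 2.77 times the second (2.06 to 3.73). The stretches counted were unlike, at 927 kb for 5892 edges with a mark within 1 kb and 2563.2 kb for 6408 free edges. Counts at the former thus lay nearer an edge, and the part of this in the ratios was not tested. Single factor peaks also joined marks: 134 Yki peaks (7.91% of those on marks) and 125 GAF peaks (7.87%) touched 2 or more marks, and the midpoint lay in none of them for 82 of the 134 and 66 of the 125.

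**Figure D4:**
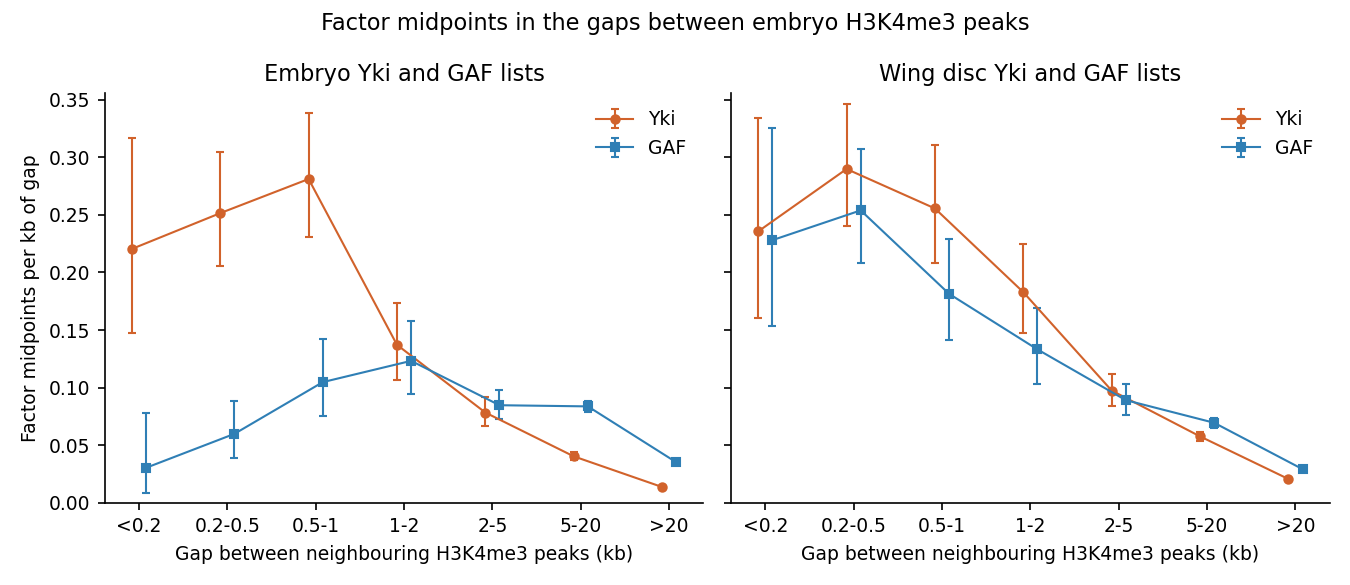
Points give factor midpoints per kb in the gaps between neighbouring embryo H3K4me3 peaks, by gap length in kb, for the embryo and the wing disc lists, with 95% Poisson intervals. In embryo gaps under 1 kb Yki stands at 0.259 per kb and GAF at 0.0744, and in wing disc lists at 0.268 and 0.220.

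The surroundings of marks standing alone are given as counts, with no value for what sparse peaks would give by themselves. Of the 1676 marks with no other mark within 2 kb, 437 (26.1%, 24.0 to 28.2) had a Yki midpoint within 500 bp outside 1 edge and 22 (1.31%, 0.868 to 1.98) outside both edges. For GAF the numbers were 347 (20.7%, 18.8 to 22.7) and 23 (1.37%, 0.916 to 2.05). A midpoint inside the mark was found for Yki on 312 of them (18.6%) and for GAF on 319 (19.0%). In all 2946 pairs of neighbouring marks under 1 kb apart, 48.5% of the neighbours of a mark with both factors held a factor, against 18.6% (17.4 to 19.7) of the neighbours of a mark with neither. In 205 pairs (6.96%) both marks were touched by 1 and the same factor peak, so leaving these out can only lower the shares of the classes with a factor. Without them the share was 23.2% (19.2 to 27.7) for marks with both, 20.9% (17.3 to 25.1) with Yki alone and 25.8% (20.9 to 31.4) with GAF alone.

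The wing disc lists, from another tissue and not used to form the classes, separated the same marks. The wing disc grows in the larva and later makes the wing. These lists came from L3 larvae of the Iso1 strain, with 1 Yki, 2 GAF and 2 input libraries, and the marks set against them are still those of embryos. A Yki wing disc peak lay on 88.1% (85.9 to 90.0) of marks with both factors in embryos, 79.0% (75.5 to 82.2) of those with Yki alone, 51.3% (47.3 to 55.3) of those with GAF alone and 29.4% (28.1 to 30.8) of those with neither. A GAF wing disc peak lay on 97.1% (95.9 to 98.0), 41.2% (37.3 to 45.3), 76.8% (73.3 to 80.1) and 17.6% (16.5 to 18.8) of marks in those classes, in that order. Marks with GAF alone in embryos thus held Yki in wing discs more often than marks with neither, by 21.9 points (17.7 to 26.1), and within quartiles of width the odds ratio was 3.27 (2.70 to 3.97). Marks with Yki alone held GAF in wing discs more often than marks with neither, by 23.6 points (19.5 to 27.8; odds ratio within width 2.15, 1.78 to 2.59). Of the 4326 marks with neither factor in embryos, 2736 (63.2%, 61.8 to 64.7) had neither in wing discs, 828 (19.1%) had Yki alone there, 317 (7.33%) GAF alone and 445 (10.3%) both.

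**Figure D5:**
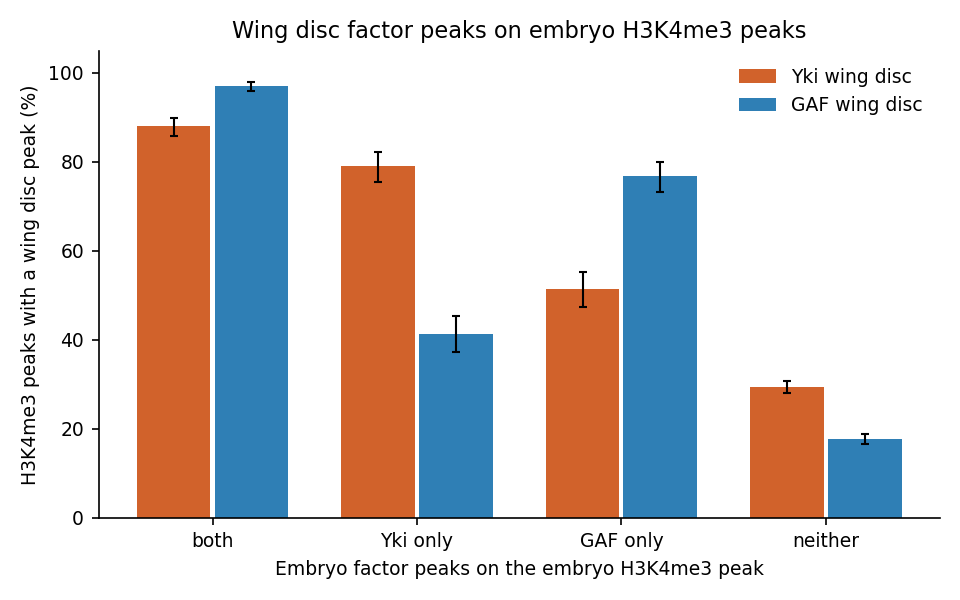
Bars give the share (%) of embryo H3K4me3 peaks that share at least 1 bp with a Yki or a GAF peak of wing discs, by embryo factor class, with Wilson 95% intervals. GAF of wing discs lies on 97.1% of marks with both embryo factors and on 17.6% of marks with neither.

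The authors' wing disc scores, which have no stated scale and rank peaks within a list only, differed between embryo classes. The exception was GAF, whose scores were alike on marks with Yki alone and with neither. Yki wing disc peaks had a median score of 20.46 on marks with both embryo factors, 15.72 with Yki alone, 13.63 with GAF alone and 11.68 with neither. GAF wing disc peaks had a median score of 238.6 on marks with both, 20.22 with Yki alone, 99.56 with GAF alone and 20.05 with neither. Off the marks the medians were 13.23 for Yki and 27.72 for GAF. Wing disc peaks on marks with neither embryo factor therefore had a lower median score than those off the marks in both lists. The same held for GAF wing disc peaks on marks with Yki alone.

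In wing discs Yki was denser inside the embryo mark's edge than outside it. Its density over the first 250 bp outside was 0.247 per kb, against 0.220 in embryos. Between 250 and 500 bp outside it was 0.163 against 0.182. These densities are not scaled for list length, which was 6491 Yki peaks in wing discs and 3749 in embryos. The first 250 bp inside held 1006 Yki wing disc midpoints (0.341 per kb) and the first 250 bp outside held 632 (0.247), a ratio of outside to inside of 0.723 (0.654 to 0.798) where embryos had 2.24. The highest density, 0.497 per kb, fell 200 to 300 bp inside. For GAF the wing disc ratio was 1.12 (1.00 to 1.26) where embryos had 1.38. Short gaps between embryo marks held Yki midpoints at 0.268 per kb and GAF midpoints at 0.220 per kb in wing discs. The low density of GAF midpoints in such gaps was thus seen in the embryo list alone.

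The share of marks with a factor was similar on the large chromosome arms, and the mix of classes varied. Marks with either factor made up between 31.5% (3R) and 35.3% (2R) of marks on 2L, 2R, 3L, 3R and X. The arms compared next are those with the highest and lowest share of each class, picked by their values. Both factors together lay on 17.4% (15.4 to 19.7) of the 1159 marks on X and on 14.5% (12.8 to 16.3) of those on 3R, intervals that overlap. GAF alone lay on 11.5% (9.82 to 13.3) of marks on 2R and on 7.77% (6.36 to 9.45) of those on X, intervals that do not overlap. On 2L, 3L and 3R it stood between these, at 9.14, 9.34 and 8.71%. Yki alone lay on 10.4% (8.74 to 12.3) of marks on 2L and on 7.16% (5.81 to 8.79) of those on X, intervals that overlap slightly. On chromosome 4, a small and largely heterochromatic chromosome, 24 of 64 marks (37.5%, 26.7 to 49.7) had Yki alone, 3 (4.69%, 1.61 to 12.9) both and 1 (1.56%, 0.276 to 8.33) GAF alone.

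Factor peaks shared a small stretch of the widest marks. These marks were chosen for their width, so a small share is tied to the choice itself. The widest mark with both factors, at 3R 16400548 to 16418422 (17875 bp), shared 210 bp with 1 Yki peak and 207 bp with 1 GAF peak. The next, at 3R 11169699 to 11182668 (12970 bp), shared 633 bp with 2 Yki peaks and 956 bp with 1 GAF peak. The third, at 2R 14048105 to 14060120 (12016 bp), shared 90 bp with Yki and 678 bp with GAF. All 3 lay within 443 bp of another mark, and each held 2 or more Yki wing disc peaks and 1 or more GAF wing disc peaks. The widest marks with Yki alone, at 2L 271984 to 283246 (11263 bp), 3R 17182979 to 17193485 (10507 bp) and 2R 13452231 to 13462468 (10238 bp), shared 296, 348 and 649 bp with Yki. The widest with GAF alone, at 3R 25818028 to 25826054 (8027 bp), 3R 4838533 to 4845836 (7304 bp) and 2R 3693036 to 3699745 (6710 bp), shared 232, 660 and 399 bp with GAF.

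Of the widest group of 650 marks, 402 (61.8%) held neither factor and 38.2% held at least 1, against 33.4% of all marks. The widest marks with neither, at 2L 3452386 to 3470043 (17658 bp), X 1757359 to 1773718 (16360 bp) and X 6179902 to 6195380 (15479 bp), were each wider than all but 1 of the marks with a factor. They held 1, 2 and 1 Yki wing disc peaks and 0, 1 and 3 GAF wing disc peaks. The nearest embryo factor peak stood 6246, 34 and 1882 bp away. The marks with most factor peaks all lay in the widest quartile, which begins at 2172 bp: 2L 1075909 to 1082724 (6816 bp) held 2 Yki and 3 GAF peaks, 2L 2176564 to 2178765 (2202 bp) held 1 and 4, and 2R 18573928 to 18576520 (2593 bp) held 2 and 3. On the last of these Yki peaks shared 2384 bp with the mark. The marks farthest from any embryo factor peak were 3L 23573118 to 23573821 (704 bp), which stood 133882 bp away from one, and the neighbours 2L 10858468 to 10860227 and 2L 10855054 to 10858095, which stood 100383 and 96969 bp away and carried no wing disc peak of either factor.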

How the data were processed

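Whole Drosophila melanogaster embryos and wing discs were profiled by ChIP-seq, with libraries made by tagmentation, per the labels' protocols. Per the submitters' processing notes, CASAVA 1.7.0, BWA and Bowtie were used and positions are on dm3. The peak caller of the embryo lists, thresholds, use of input and the way replicates were combined are not given in sources used here; peak names of the deposited wing disc lists begin with MACS. The deposited lists give start and end in bp, counted from 0 and printed here from 1, and the wing disc lists carry the authors' score per peak. Peak width and list length move with depth and calling threshold.

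Overlaps (at least 1 bp), distances edge to edge and midpoint positions were computed in Python (3.11.15) using scipy 1.17.1, pandas 2.3.3 and numpy 2.4.6; matplotlib 3.10.9 drew the figures. The overlap, distance and edge steps were tested on simulated lists. Edge densities use chromosome arms 2L, 2R, 3L, 3R and X; edges follow the nearest mark, and bins inside mix marks of different width. Intervals are Wilson for shares, Newcombe for differences of shares, exact Poisson for densities, Wald for odds ratios and ratios of densities, and binomial order statistics for medians, each at 95%. Mantel-Haenszel odds ratios use the Robins-Breslow-Greenland variance. The range after a ratio of median widths divides the limits of 1 median by the opposite limits of the other, and is not itself a 95% interval. No p-values were computed, since peaks are not replicates and there is 1 list per antibody; differences between lists treat the lists as independent. The members, classes and tests were chosen with earlier results of these data known. Named marks are the 3 widest of each class, the 3 with most factor peaks and, on large arms, the 3 with neither factor farthest from a factor peak; the widest GAF peak was named after its values were seen. Alternatives were other overlap rules, fixed factor width, shortened factor lists, merged marks, autosome arms alone, and other edge and neighbour distances.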

Additional observations from a re-analysis of the deposited data

Results flagged for a closer look

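The position of factor midpoints at embryo H3K4me3 edges differed between the embryo and the wing disc lists beyond counting error in 3 of the 4 contrasts examined, which were chosen after the data were seen. The Yki ratio of midpoints outside to inside, over 250 bp each, was 2.24 in embryos and 0.723 in wing discs, a ratio of ratios of 3.10 (95% interval 2.61 to 3.69). The GAF ratio was 1.38 in embryos and 1.12 in wing discs, a ratio of ratios of 1.23 (1.01 to 1.49). The GAF density at edges with a mark within 1 kb, over that at free edges, was 0.444 in embryos and 1.07 in wing discs, a ratio of ratios of 0.414 (0.307 to 0.560). For Yki the same comparison gave 1.23 and 1.30, a ratio of 0.946 (0.764 to 1.17). In both tissues the stretch counted per edge was shorter on average at edges with a mark within 1 kb than at free edges. Tissue, list length, peak width and any difference in peak calling cannot be told apart here, and the marks are those of embryos in both comparisons.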

How the results depend on the processing

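No paired analysis was possible because each antibody has 1 deposited list, which carries no replicate, and for the same reason no replicate could be left out. Depth is unknown and limits list length and width. The co-occurrence of Yki and GAF on marks and the wider spacing of marks with either factor kept their direction with intervals clear of no difference under every alternative run. The first ranged from 6.59 to 28.5 as an odds ratio. The second ranged from -9.79 points, with marks under 500 bp apart merged, to -23.1 points. For spacing, the alternatives were run on marks with either factor together and not on each class. The number of marks with either factor was 2173, against 461 with a reciprocal overlap of 50%, 1293 with the factor midpoint inside the mark and 3526 with wing disc lists. The median width of marks with either factor over that of marks with neither was 1.24, against 0.999 with the reciprocal overlap, 1.06 (0.953 to 1.19) with marks under 500 bp apart merged and 0.953 among marks of 1 kb or more, and 1.49 with the midpoint inside, 1.45 with factor peaks of 200 bp and 2.20 with wing disc lists; marks of 1 kb or more, like wing disc lists and 10 width groups, were chosen after the data were seen. The Yki minus GAF difference in midpoints inside was 6.57 points, against 0 (-1.67 to 1.04) with the reciprocal overlap, -7.19 with factor peaks of 200 bp, 12.0 with the shortened GAF list and also with merged marks, 11.3 with the widest 50% of each list and 18.3 with wing disc lists. The Yki density at the inner edge over the interior was 1.05, against 1.19 with merged marks, 1.43 with an edge zone of 500 bp and 1.54 with wing disc lists. That of GAF was 1.28, against 1.06 (0.883 to 1.27) in marks of 1 kb or more, 1.79 with merged marks, 1.704 with the zone of 500 bp and 1.82 with wing disc lists. The causes were not tested. Of the 18 named marks, 16 or 17 kept their class under the 4 alternatives of midpoint, extension, factor width and GAF list length, 10 with the widest 50% of each factor list, 6 with the reciprocal overlap and 9 with wing disc lists.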
